A study of Mus musculus with 6 samples.

Results

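The Hedgehog pathway genes described here were Sufu, Ptch1, Smo, Kif7, Gli1, Gli2 and Gli3, and the measurement was the accessibility of the chromatin around them in Beko cells, a line of mouse progenitor T cells with constitutively active Notch signaling. Each gene was taken with its body plus 50 kb to either side, and peaks were counted when they overlapped that window by at least 1 bp. A peak was placed at an own start when 1 kb or less separated it from a start among the gene's annotated transcripts. The 7 genes, of 22380 protein-coding genes in the annotation, held 59 of the 32527 peaks of the series.

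Accessibility was measured by ATAC-Seq, in which a transposase inserts sequencing adapters into open chromatin so that accessible DNA appears as intervals dense in reads. The 6 libraries fell into 2 groups, 3 from Beko cells that received DAPT, a γ-secretase inhibitor (GSI), for 24 h and 3 from Beko cells that received the solvent DMSO for the same time. GSI blocks the cleavage that frees the Notch intracellular domain, the partner of the DNA-binding factor RBPJ. Peaks found in at least 3 of the 6 libraries were merged by the authors into 1 list, so that a peak has a position and a width but no value per library, no replicates can be compared and no effect of GSI on these genes was analysed here. All groups share the 1 cell line. Of 12 markers of progenitor T cells 11 had a peak at an own start (Cd3d, 1119 bp from its nearest peak, did not), and of 10 markers of other lineages 1 did (Gata1).

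Hedgehog ligands bind the receptor Patched, which otherwise holds the membrane protein Smoothened inactive, and the signal passes through the primary cilium to the zinc finger factors of the GLI family. Sufu binds GLI proteins, keeps them out of the active pool and favours their processing to repressors, and the kinesin Kif7 organises the tip of the cilium at which this control takes place. Ptch1 and Gli1 are themselves targets of the pathway in many tissues, and in the thymus Hedgehog signals have been linked to early stages of T-cell development. Sufu is also one of the loci at which the study showed binding of RBPJ. The site was static, the study's term for sites at which GSI left RBPJ binding unaffected. The Sufu primers that the study lists for measuring binding at single loci (ChIP-qPCR) match the sequence just upstream of the Sufu start.

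The sequences that the descriptions below turn on are shown first, each written 5′ to 3′ from the reference of build mm9. The first pair lies directly upstream of the annotated starts that were inside a peak, that of Sufu (chr19:46471093-46471385, plus strand, the 293 bases of the peak before the start) and that of Smo (chr6:29685394-29685693, plus strand, the 300 bases before the start). Capitals mark the SP core GGGCGG on either strand.
Sufu upstream of the start: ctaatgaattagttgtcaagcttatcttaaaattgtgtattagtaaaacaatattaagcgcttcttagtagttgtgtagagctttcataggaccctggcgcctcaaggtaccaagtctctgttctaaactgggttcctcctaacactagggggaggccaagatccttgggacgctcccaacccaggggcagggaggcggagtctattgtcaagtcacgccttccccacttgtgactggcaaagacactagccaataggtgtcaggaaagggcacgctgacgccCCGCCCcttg
Smo upstream of the start: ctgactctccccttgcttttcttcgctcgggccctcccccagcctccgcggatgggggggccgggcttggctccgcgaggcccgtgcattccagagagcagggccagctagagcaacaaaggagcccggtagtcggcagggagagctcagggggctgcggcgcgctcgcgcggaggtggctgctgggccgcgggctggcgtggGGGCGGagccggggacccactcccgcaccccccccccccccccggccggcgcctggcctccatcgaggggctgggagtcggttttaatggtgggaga
Both upstream stretches held 1 SP core and no TGGGAA, the core of the RBPJ motif. The match began 10 bases before the Sufu start, on the opposite strand, and 97 bases before the Smo start. The Sufu stretch was 49.8% GC and also held the NFY core CCAAT, 43 bases before the start, and the Smo stretch was 73.7% GC.

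The next sequences are the windows of 60 bases around TGGGAA in the distal peaks of the Sufu window, with the site in capitals and each written on the strand of the site, which was the minus strand in all 4. They lie at chr19:46527176-46527235 (peak 6, intron 6 of Sufu), chr19:46546013-46546072 (peak 8, intron 8), chr19:46585672-46585731 (peak 14, an intron of Trim8) and chr19:46603415-46603474 (peak 16, intergenic). Peaks are numbered along the chromosome.
Sufu peak 6: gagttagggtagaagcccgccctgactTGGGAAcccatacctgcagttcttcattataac
Sufu peak 8: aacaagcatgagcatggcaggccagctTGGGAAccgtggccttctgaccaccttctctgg
Sufu peak 14: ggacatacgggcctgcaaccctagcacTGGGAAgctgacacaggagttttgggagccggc
Sufu peak 16: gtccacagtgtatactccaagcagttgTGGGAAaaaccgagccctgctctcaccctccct
The sites in peaks 6 and 16 lay within the central 200 bases of their peaks, and those in peaks 8 and 14 did not.

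The last set holds the matches that were rare among all peaks. The first is the GLI consensus GACCACCCA at Ptch1 (chr13:63667717-63667776, plus strand). The second is the window upstream of Smo in which the GLI consensus, here on the minus strand, and TGGGAA lay 14 bases apart (chr6:29669057-29669116, plus strand). The third is a pair of TGGGAA sites facing each other across 18 bases in intron 1 of Gli2 (chr1:120901002-120901061, plus strand). Capitals mark the matches.
Ptch1 peak 6: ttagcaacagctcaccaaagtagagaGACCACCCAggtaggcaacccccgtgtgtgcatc
Smo peak 3: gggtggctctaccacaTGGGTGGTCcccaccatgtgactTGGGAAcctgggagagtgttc
Gli2 peak 5: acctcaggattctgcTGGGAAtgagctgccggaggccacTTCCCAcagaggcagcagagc
Each of these windows lay outside annotated exons.

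Sufu (chr19:46471386-46563294, plus strand) had more peaks than any other gene of the set. Its window of 192 kb had 17 peaks, against 13 at Gli2, 8 at Gli1, 7 each at Ptch1, Smo and Kif7, and none at Gli3. Over all protein-coding genes the number of peaks per window had a median of 3 and quartiles of 1 and 6, and 0.340% of genes had 17 or more. Windows differ in length, and per 100 kb of window Sufu had 8.86 peaks, a density that 3.94% of protein-coding genes reached. Gli1 followed with 7.16 peaks per 100 kb, then Kif7 with 6.03, Smo with 5.57, Ptch1 with 4.26 and Gli2 with 4.07, all above the median of 2.38 over protein-coding genes, and below its upper quartile of 4.71 in the case of Ptch1 and Gli2. Gli2 has a long window of 319 kb. Its rank among protein-coding genes fell from the top 1.89% by number of peaks to the top 30.3% by density. The rank of Sufu, with its window of 192 kb, fell from the top 0.340% to the top 3.94%.

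**Figure D1:**
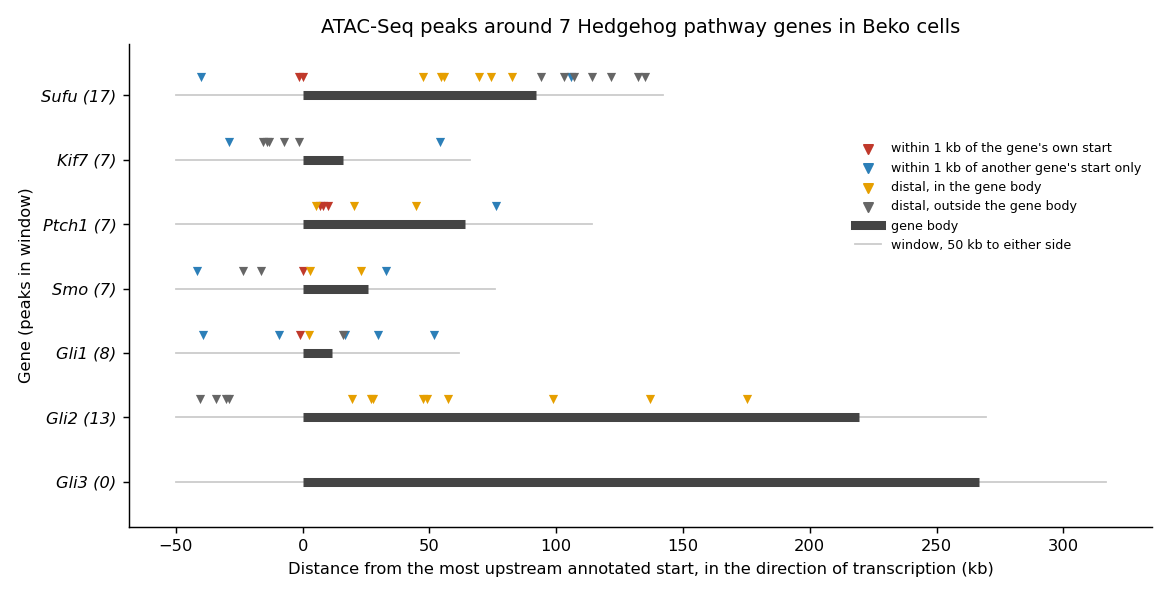
Positions of the ATAC-Seq peaks around the 7 genes, with distance from the most upstream annotated start in kb in the direction of transcription on the horizontal axis and 1 gene per row, where each triangle is the centre of 1 peak coloured by its class, bars are gene bodies and lines the windows. The 17 peaks of Sufu lie at its start, in its body and beyond its 3′ end, apart from 1 at the start of a gene upstream, those of Gli2 lie only in the body and upstream of it, and the row of Gli3 is empty.

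At Sufu, 2 of the 17 peaks were at own starts. Peak 3 (chr19:46471093-46471792, 700 bp) held 5 of the 7 annotated starts, all those of protein-coding transcripts, and was centred 56 bp past the first of them in noncoding exon 1. Peak 2 (chr19:46469495-46470533, 1039 bp, the widest of the window) lay 853 bp upstream and held the start of Actr1a, which encodes a subunit of dynactin and is transcribed away from Sufu from 1161 bp upstream. The peaks were separated by 559 bp, and both lay within 1 kb of a start of each gene, so that peak 2 cannot be assigned to Sufu alone. Both were CpG-rich, a term used here for sequence of 50% GC or more whose CpG count was 0.6 or more of that expected from its C and G content.

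The body of Sufu held 6 further peaks, all intronic and none CpG-rich. They were peak 4 in intron 3 (chr19:46518482-46519062, 581 bp), peak 5 in intron 6 (chr19:46525718-46526170, 453 bp), peak 6 in the same intron (chr19:46527018-46527323, 306 bp, the narrowest of the window), peak 7 in intron 8 (chr19:46540544-46541024, 481 bp), peak 8 in the same intron (chr19:46545371-46546112, 742 bp) and peak 9 in intron 10 (chr19:46553752-46554193, 442 bp). None lay closer than 3394 bp to an annotated Sufu start, the starts of noncoding transcripts in the gene included. The longest stretch without a peak in the window, 46.7 kb, ran from the end of peak 3 at 46471792 to peak 4 at 46518482, so the accessible sites in the gene body lay in its downstream part. Over all peaks, 24.2% of the gaps between neighbouring peaks were as long or longer.

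Downstream of Sufu lay 8 peaks, 6 of them distal peaks for which the nearest start of a protein-coding gene was that of Trim8, a ubiquitin ligase gene. Peak 10 (chr19:46565075-46565555, 481 bp) was intergenic and its nearest such start was of Sufu, 7488 bp away. Peak 11 (chr19:46574179-46575007, 829 bp, CpG-rich) lay 1131 bp from the Trim8 start, and peak 12 (chr19:46577111-46577591, 481 bp, CpG-rich) lay 973 bp from it and thus counted as a peak at another gene's start. Peaks 13 (chr19:46577988-46578639, 652 bp) and 14 (chr19:46585320-46585867, 548 bp) were in Trim8 introns, peaks 15 (chr19:46592839-46593456, 618 bp, with 4 E-boxes) and 16 (chr19:46603197-46603779, 583 bp) were intergenic, and peak 17 (chr19:46606184-46606822, 639 bp) lay in an intron of Arl3. On the other side, upstream of Sufu and Actr1a, the single further peak was peak 1 (chr19:46431141-46431692, 552 bp) at the start of Tmem180. Without the peaks at other genes' starts alone (peaks 1 and 12) Sufu had 15 peaks, and in the gene body alone it had 7 against 9 at Gli2.

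**Figure D2:**
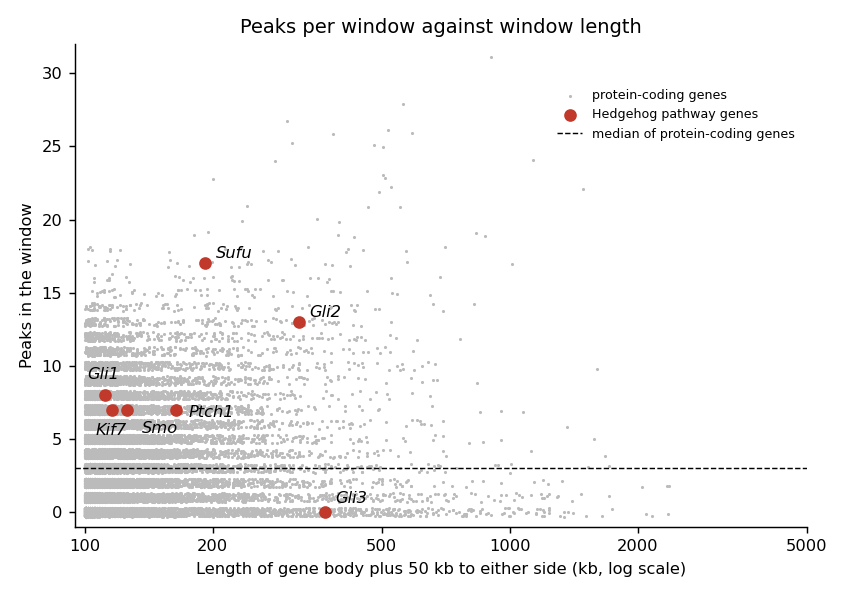
Peaks in the window (vertical axis) against the length of the window in kb (horizontal axis, log scale) for protein-coding genes (grey, moved by up to 0.3 vertically so that points separate) and the 7 Hedgehog pathway genes (red), with the median of protein-coding genes as a dashed line. Sufu with 17 peaks and Gli2 with 13 stand above most genes of their window length and Gli3 lies at 0, and 2 genes with more than 32 peaks are not drawn.

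Ptch1 (chr13:63610261-63674474, minus strand), which encodes the receptor, had 3 of its 7 peaks at own starts, more than any other member, but none of its 4 annotated starts was inside a peak. The peaks clustered around the starts of Ptch1-201 at 63666828 and Ptch1-204 at 63665634. Peak 5 (chr13:63666233-63666675, 443 bp) lay 153 bp downstream of the Ptch1-201 start in intron 1, peak 4 (chr13:63664406-63664904, 499 bp) lay in intron 2, 730 bp downstream of the Ptch1-204 start, and peak 6 (chr13:63667492-63667866, 375 bp) lay 664 bp upstream of the Ptch1-201 start, in intron 1 of the longer Ptch1-203. The most upstream start, that of Ptch1-203, was 4865 bp from its nearest peak, the CpG-rich peak 7 (chr13:63668876-63669609, 734 bp), and the start of Ptch1-202 was 13737 bp from its nearest. The widest distal peak was peak 2 (chr13:63629362-63630366, 1005 bp) in intron 15, the third distal peak, beside it and peak 7, was in intron 2, and the remaining peak was at the start of Fancc. With 6 of 7 peaks in the gene body, Ptch1 was the member whose count changed least when the flanks were left out, apart from Gli3 at 0.

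Smo (chr6:29685694-29711365, plus strand), which encodes the transducer that Patched inhibits, had its single annotated start inside a peak of 1057 bp (chr6:29685280-29686336), which was CpG-rich with a GC content of 72.2%. The other 6 peaks of its window were narrower than that except the peak of 1413 bp at the start of Ahcyl2. Those in the gene were peak 5 (chr6:29688476-29688791, 316 bp) in intron 1 and peak 6 (chr6:29708433-29708840, 408 bp) in intron 9. The widest distal peak, peak 3 (chr6:29668871-29669461, 591 bp), was intergenic, 16233 bp upstream of the Smo start and 10843 bp from that of Tspan33, whose own start held a peak of 481 bp.

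Kif7 (chr7:86842985-86859072, minus strand) had 7 peaks in its window and none in its body or within 1 kb of its start. The nearest, peak 2 (chr7:86860277-86860930, 654 bp), lay 1205 bp upstream, just outside the 1 kb limit, was CpG-rich and held 2 TGGGAA sites. The start itself was not CpG-rich (CpG ratio, observed to expected, of 0.211 at 52.8% GC within 500 bp), and this ratio was the lowest of the 7 genes. Of the other peaks, 4 lay further upstream in Plin1, the perilipin gene, among them the widest distal one (peak 6, chr7:86874084-86874989, 906 bp), and those at other genes' starts were at 5730590G19Rik (1146 bp) and at the adjoining starts of Pex11a and Wdr93 (597 bp).

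The 3 GLI genes differed widely. Gli1 (chr10:126766945-126778645, minus strand), which acts as an activator, lies among other genes, with 7 other protein-coding starts in its window of 112 kb. Of its 8 peaks 5 were at those genes' starts, from 476 bp at Arhgap9 to 2754 bp at Ddit3 and Mbd6, the widest peak of the set, with Mars (1499 bp), Inhbe (656 bp) and R3hdm2 (1273 bp) between. Without them Gli1 had 3 peaks. Its own-start peak (chr10:126779316-126779697, 382 bp) lay 671 bp upstream of the start of Gli1-201 and did not reach it, a peak of 497 bp lay in intron 2 (chr10:126775855-126776351), and the widest distal peak (chr10:126762340-126763221, 882 bp) lay in an intron of Arhgap9.

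Gli2 (chr1:120730709-120950196, minus strand) had 13 peaks, all distal and none CpG-rich. Its window held no start of another protein-coding gene. Introns 1 to 3 held 9 of the peaks, from 264 bp to 855 bp (chr1:120922669-120923523, intron 1, the widest), and the other 4 were intergenic, 28908 to 40060 bp upstream of the first start. The nearest peak was 19348 bp from the first start and 13691 bp from any annotated start of the gene. Gli2 was thus the member with most distal peaks in its body, ahead of Sufu with 6, and had none at a start.

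Gli3 (chr13:15555068-15821859, plus strand), the main repressor of the family, had no peak in its window of 367 kb, as did 22.8% of all protein-coding genes. Of the 643 protein-coding genes with a body at least as long as that of Gli3, 34.5% had none and the median was 1. From any annotated Gli3 start to the nearest peak the distance was at least 548326 bp. The stretch without peaks around the gene ran for 1381 kb, from 832 kb before the gene body to 282 kb after it, and also held the starts of Gm17394 and Inhba. Of all gaps between neighbouring peaks 0.951% were as long, and such gaps made up 32.3% of the length of all chromosomes with peaks. No assembly gaps lay in the window (0.00% unknown bases).

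Across the set, 4 of the 7 genes had a peak at an own start (Sufu, Ptch1, Smo and Gli1), beside 46.9% of all protein-coding genes (10506 of 22380, Wilson 95% interval 46.3 to 47.6, which covers counting error only). With so few members the share of 57.1% does not stand apart from that background. An annotated start was inside a peak at 2 of the 7 (Sufu and Smo), beside 44.0% of protein-coding genes. The 1 kb limit fell between Gli1 and Ptch1 at 671 and 153 bp on one side and Kif7 at 1205 bp on the other, so that Kif7 was added within 2 kb and Gli1 was lost within 500 bp.

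Among the members, the CpG content of the start did not separate those with a peak at an own start from those without. So few genes cannot show a lack of relation. Over all protein-coding genes, 76.2% of the 9879 with a CpG-rich start (within 500 bp of the most upstream start) had a peak at an own start (95% interval 75.4 to 77.1), against 23.8% of the other 12501 (23.1 to 24.6). Among the members 5 had a CpG-rich start, and of these Sufu, Smo and Ptch1 had a peak at an own start while Gli2 and Gli3 did not. For Ptch1 the most upstream start is that of Ptch1-203, which itself lay 4865 bp from a peak. The start of Gli3 had the highest CpG ratio of the set (0.935, 70.0% GC), and the start of Gli2 had a ratio of 0.676 at 62.0% GC, so both belonged to the 2348 protein-coding genes with a CpG-rich start and no peak there. Gli1 was the reverse case, with a ratio of 0.544 at 60.5% GC and a peak within 1 kb. Kif7, whose start was not CpG-rich (ratio 0.211), had no peak within 1 kb, as was true of 76.2% of such protein-coding genes.

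**Figure D3:**
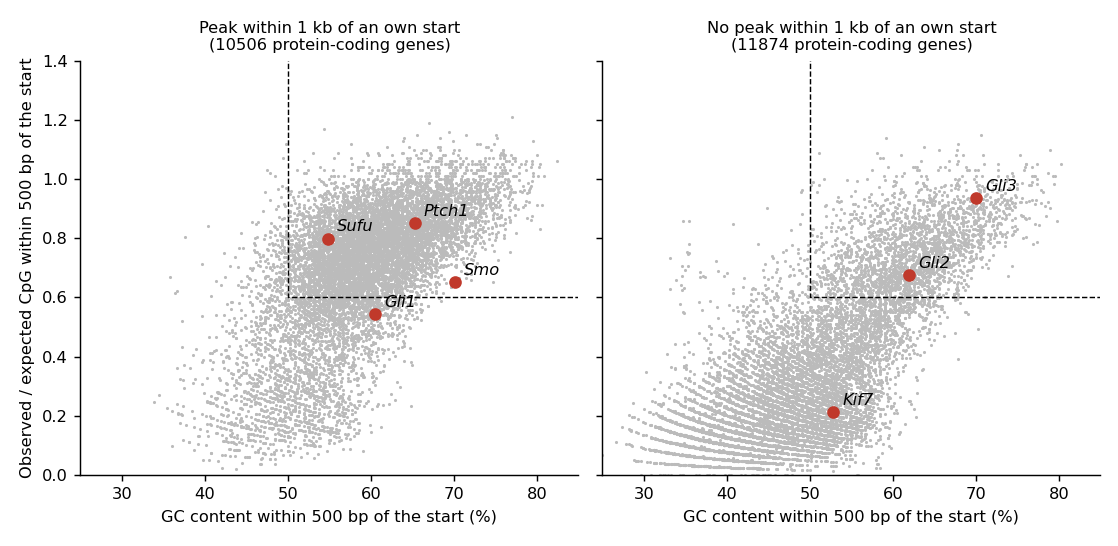
Observed to expected CpG ratio (vertical axis) against GC content in % (horizontal axis) within 500 bp of the most upstream start for protein-coding genes (grey) and the 7 Hedgehog pathway genes (red), with genes that had a peak within 1 kb of an own start on the left (10506) and those without on the right (11874). The dashed lines bound CpG-rich starts, and Gli2 and Gli3 lie inside them on the right while Gli1 lies outside them on the left.

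The 59 peaks divided into 7 at own starts, 12 at other genes' starts, 21 distal in the gene bodies and 19 distal outside them. Within 1 kb of a start of any gene lay 19 peaks (32.2%), beside 35.4% of all peaks. The widths of the peaks had a median of 552 bp and quartiles of 448 and 701 bp, beside 551, 410 and 835 bp over all peaks, so the medians were alike and the upper quartile was lower around the members. The peaks at starts were narrower than all such peaks (median 656 against 855 bp) and the distal ones wider (median 528 against 465 bp). Of the 40 distal peaks 4 were CpG-rich (10.0%), beside 2.94% of all 21005 distal peaks. They were Sufu peak 11, Kif7 peaks 2 and 3 and Ptch1 peak 7, which lay between 1131 bp (Trim8) and 7079 bp (Kif7) from the nearest start of a protein-coding gene.

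**Figure D4:**
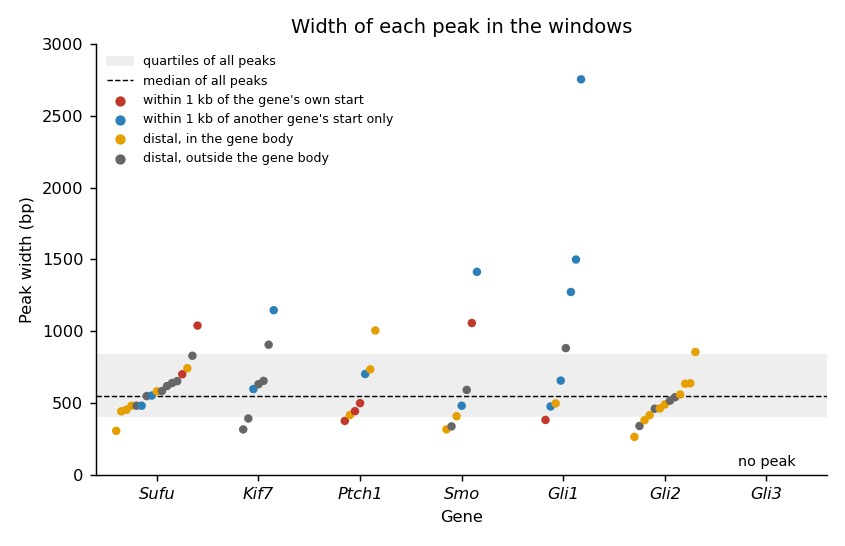
Width in bp (vertical axis) of each of the 59 peaks, by gene (horizontal axis) and coloured by class, with the quartiles of all 32527 peaks as a grey band (410 to 835 bp) and their median as a dashed line (551 bp). The 4 widest peaks, in the windows of Smo and Gli1, are at the starts of neighbouring genes. The widest peaks at own starts are those of Smo (1057 bp) and Sufu (1039 bp), the latter holding the start of Actr1a and not that of Sufu.

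Of the 59 peaks, 23 (39.0%) held TGGGAA on either strand, beside 42.5% of all peaks. By gene these were 5 of 17 at Sufu, 7 of 13 at Gli2, 4 of 8 at Gli1, 3 of 7 each at Kif7 and Smo, and 1 of 7 at Ptch1. Wider peaks hold more sites by length alone, so sites were also set against the length of peak sequence. Sufu had 4.94 sites per 10 kb of peak (5 sites in 10127 bp) and Ptch1 2.40, both below the 8.93 of all peaks, while Kif7 had 8.62, Smo 6.52, Gli1 9.50 and Gli2 15.3 (10 sites in 6552 bp). Sufu was thus the member with the most peaks, and Gli2 the one with the most TGGGAA per length of open chromatin. These are counts of 1 to 10 sites per gene, and differences between genes were not tested.

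By position, 18 of the 40 distal peaks held TGGGAA (45.0%, against 39.2% of all distal peaks) and 5 of the 19 peaks at starts did (26.3%, against 48.4% of all peaks at starts). Per 10 kb of peak there were 10.0 sites in the distal peaks against 9.72 in all such peaks, and 5.45 sites in the peaks at starts against 8.04. No TGGGAA lay in the peaks at the starts of Sufu, Ptch1 or Gli1, nor in the 300 bases upstream of the most upstream start of any member, where 24.9% of protein-coding genes had one. In the peak over the Smo start a single TGGGAA lay 33 bases past the start. At Sufu the match at a start was that in peak 1, at Tmem180, and the other 4 were the distal ones shown above. With the wider form (TGGGAA or TGAGAA) 37 of the 59 peaks had a match, beside 62.5% of all peaks, and within the central 200 bases 9 had TGGGAA, beside 15.3%.

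The facing pair of TGGGAA in intron 1 of Gli2 was noticed after the sites had been listed. With 15 to 19 bases between the sites, such a pair occurred in 1 of the 59 peaks and in 17 of all 32527 (0.0523%), a range that was set after the spacing had been seen. With 15 to 17 bases it occurred in 0 of the 59 peaks and in 9 of all peaks (0.0277%). Both sites had to be exactly TGGGAA here, whereas the study's own search for facing pairs allowed mismatches, so its counts are not comparable with these. The spacing at Gli2 is longer than the one described for paired RBPJ sites at Notch target genes. The GLI consensus GACCACCCA was found in 2 of the 59 peaks, Ptch1 peak 6 and Smo peak 3, beside 0.593% of all peaks. Both matches lay in the central 200 bases of their peaks, as in 0.120% of all peaks. At Ptch1, a known target of GLI proteins, it lay 923 bases upstream of the start of Ptch1-201, and at Smo 16621 bases upstream of the start, in the peak whose TGGGAA is shown with it. No GLI consensus lay in the peaks of Sufu, Kif7, Gli1 or Gli2. A match says only that these letters are in the peak, and no binding of GLI or RBPJ was measured in the data described here.

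The other cores searched were those of SP (GGGCGG), E-box (CAGCTG), ETS (CCGGAAGT), RUNX (TGTGGT), NFY (CCAAT) and NRF1 (GCATGCGC) factors, on both strands. SP cores were in 29 of the 59 peaks, beside 38.7% of all peaks, with 10 of 17 at Sufu and 1 of 13 at Gli2. E-boxes were in 27 peaks, beside 42.7% of all peaks, with 8 of 17 at Sufu and 9 of 13 at Gli2. RUNX cores were in 24 peaks (41.4% of all peaks held one), NFY cores in 25 (48.0%), ETS cores in 4 (4.79%) and NRF1 cores in 3 (3.55%). Of the 6 genes with peaks, Gli2 thus had the fewest peaks with an SP core and the most with an E-box or TGGGAA, and it was also the one with no CpG-rich peak. In the 300 bases upstream of the most upstream start, SP cores were found at Sufu, Smo and Gli2 (40.9% of protein-coding genes), an E-box and RUNX cores at Kif7 (13.7% and 15.5%) and an NFY core at Sufu (39.0%). The searched cores do not contain one another, and matches of different cores may overlap.

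Among the rest of the pathway, 25 of 26 listed genes were found in the annotation, and 14 of them (56.0%) had a peak at an own start, beside 46.9% of all protein-coding genes. The median was 4 peaks per window, beside 3, and 7 of the 25 windows held no peak, beside 22.8% of windows. These shares lay near the background, and the counts by role that follow are of 2 to 8 genes each. The ligand genes had no peak at a start (0 of 3), with none in the window of Shh, 1 at Ihh and 5 at Dhh. Of the ligand processing and release genes, Hhat, the acyltransferase that lipidates the ligands, had a peak at its start and 13 in its window, and Scube2 had none at its start. Of the coreceptors and antagonists, Cdon had one, while Hhip, Boc, Gas1 and Lrp2 had no peak in their windows at all. Among the genes of the cilium and of transduction 5 of 8 had one (Stk36, Tulp3, Arl13b, Ift88 and Kif3a, not Evc, Evc2 or Gpr161).

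The kinases and ubiquitin ligase parts that act on GLI proteins all had a peak at an own start (6 of 6). These were Prkaca (1082 bp), Csnk1a1 (1104 bp), Gsk3b (1525 bp), Btrc (986 bp), Spop (1257 bp) and Cul3 (1340 bp). All of these peaks were wider than the peak of 700 bp that held the Sufu starts. All but that of Btrc were also wider than the peak of 1057 bp at the Smo start. These genes also act outside the pathway. Of all the pathway genes looked at, the windows with most peaks were those of Sufu (17), Btrc (16), Gli2 and Hhat (13 each).

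Set beside the other loci at which the study showed RBPJ binding, Sufu again had the most peaks. The 8 loci were Il2ra with 12 peaks, Notch3 and Dtx1 with 10 each, Hes1 with 7, Gm266 and Dennd2d with 5 each, Hey1 with 4 and Lgmn with 3. Their median was 6. A peak at an own start was found at 7 of the 8 (all but Il2ra), beside 46.9% of all protein-coding genes. Per 100 kb of window the difference was small, with 7.98 peaks at Il2ra and 7.59 at Dtx1 beside 8.86 at Sufu. The TGGGAA content differed in the other direction, since 30 of the 56 peaks of these loci held the core (53.6%, 13.1 sites per 10 kb of peak) against 5 of 17 at Sufu (4.94 sites per 10 kb). All peaks of the series lay between, at 42.5% and 8.93 sites per 10 kb. The counts at Sufu and at the other loci cover whole windows, not the sites bound by RBPJ. The Sufu primers that the study lists for ChIP-qPCR lie in peak 3, at the start, which held no TGGGAA. The loci are also unlike in the study, which showed a static site at Sufu. At Gm266, Il2ra, Dennd2d, Hey1 and Hes1 it showed dynamic sites, at which GSI reduced RBPJ binding. It also showed static sites at Il2ra, Hey1 and Hes1, and only static sites at Lgmn, Notch3 and Dtx1. The study found the RBPJ motif in a larger share of dynamic than of static sites. The 56 peaks come from loci of both kinds, and whether this bears on their TGGGAA content was not tested. Whether GSI changed any of the 17 Sufu peaks was not tested here, since the list holds both treatments together.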

How the data were processed

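ATAC-Seq was done with a commercial kit on Beko cells, 3 libraries with GSI and 3 with DMSO, grouped by the labels. The authors trimmed reads with trimGalore, used HISAT2 2.2.1 to place each read once on mm9, took out duplicates (Picard), called peaks per library with MACS2 without an input, and kept those found in 3 of 6 libraries outside blacklisted regions. The deposited list used here gives positions in bp (a chromosome with 2 ends for every peak), without a count or signal, and every score in it is 0. The read numbers that the study's supplement gives per library were not used, because no value here belongs to a single library, and each read from a repeat was placed at 1 position. A peak may come from 1 treatment only.

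Starts were counted from 0 in the list and are printed counted from 1. Genes and starts came from GENCODE vM1 and sequence from NCBIM37, the same build as mm9. Analyses used Python 3.11.15, numpy 2.4.6, scipy 1.17.1 and matplotlib 3.10.9, and the counting was tested on simulated peaks. CpG content was taken over 500 bp to either side of the most upstream start. Every result is a description without a test. The members, gene lists and motifs were chosen with earlier results of these data known. Named peaks were all those of Sufu and, for the other genes, those at own starts and the widest distal one. Other peaks of interest (the nearest of Kif7, and rare motif matches) were chosen after their values were seen. Alternatives were other windows, start distances, peak widths, joined peaks, assignment by centre, coding transcripts only, and other motif settings. Disp1 was not analysed here. The values of 1 listed gene are not reported here.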

Additional observations from a re-analysis of the deposited data

How the results depend on the processing

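Sufu had the most peaks of the 7 genes in the window of 50 kb and under every alternative tried except the gene body alone, in which Gli2 had 9 and Sufu 7. No alternative left out distal peaks nearest to another gene's start. At Sufu 6 distal peaks were nearest to the start of Trim8. At Gli2 all 13 peaks were nearest to a start of Gli2. The number of peaks over the 7 windows, 59, became 35 with flanks of 10 kb, 26 in the gene bodies alone and 33 with peaks of at least 500 bp. It stayed within 1.5 times under the other alternatives (78 with 100 kb, 47 without peaks at other genes' starts, 50 with peaks within 1 kb joined, 59 by the centre). At the other loci with RBPJ binding the number, 56, became 32, 88, 21 and 36 with flanks of 10 kb, flanks of 100 kb, the gene bodies alone and peaks of at least 500 bp. The number of the 7 genes with a peak at an own start, 4, became 2 (Sufu and Smo) when the start had to be inside the peak or the peak had to be at least 500 bp wide, and was 3 within 500 bp, 5 within 2 kb and 4 with protein-coding transcripts only. Peaks with the RBPJ core, 23 of 59, became 37 with the wider form and 9 in the central 200 bases. These changes follow from the construction of the alternatives. The facing pair of sites, its spacings and the counts per length of peak were added after the data had been seen.

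The list gives no depth, no summit and no value per library, so neither the strength of a peak nor its error can be given, and no peak means no interval called in 3 libraries. Leaving out a replicate was not run. No paired analysis was possible because the libraries were merged into 1 list and no result comes from a test.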
